A study of Bos taurus with 19 samples.

Results

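Macrophage and phagocyte markers were followed through the theca interna of 4 groups of bovine ovarian follicles. The markers are *GPNMB*, *CD68*, *LGALS3*, *CD14*, *CD163*, *MRC1*, *CSF1R*, *AIF1*, *CYBB* and *LAPTM5*, and a probe set was taken when its only gene symbol in the platform annotation was one of these 10. The genes were chosen by their known place in macrophages, and with their log2 signals on the atretic and small healthy arrays already seen. The rule found 12 of the 24127 probe sets of the array, for 8 of the 10 genes. *GPNMB* has 3 of them, *CD14* and *CYBB* have 2 each and the other genes have 1 each, while no probe set carries the symbol of *CD163*, a scavenger receptor for haemoglobin bound to haptoglobin, or of *MRC1*, the macrophage mannose receptor.

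The theca interna is the vascular inner layer of the follicle wall that makes androgens. Ovaries came from slaughtered non-pregnant *Bos taurus* heifers, granulosa cells were scraped away, and RNA of the dissected layer was hybridised to 1-colour Affymetrix bovine arrays, with 1 follicle on each of 19 arrays. Atretic follicles (n = 5) had a diameter of 3 to 5 mm, large healthy follicles (n = 4) of more than 9 mm, and small healthy follicles of 3 to 5 mm, with rounded (n = 5) or columnar (n = 5) granulosa cells at the base of the epithelium. All values are log2 signals, so a difference of 1 is a 2-fold change. The sample records give an RNAqueous Micro kit and 0.25 µg of labelled RNA for atretic follicles, Trizol with RNeasy columns and 2 to 5 µg for large follicles, and RNeasy mini columns and 2 to 5 µg for small healthy follicles. By these records, follicle group and RNA preparation cannot be told apart. The study's methods describe a single preparation, but the study reports healthy follicles only and gives none for the atretic ones. Nothing in the records says that each follicle came from a different animal, so a p-value here covers the spread from follicle to follicle, which may be technical in part.

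Macrophages are resident phagocytes that arise from embryonic precursors or blood monocytes and depend on signalling through the CSF1 receptor. They take up dying cells and debris, digest them in lysosomes, and can release reactive oxygen through the phagocyte oxidase. In the ovary they lie in the stroma and theca of growing follicles, and they enter follicles that degenerate by atresia, in which the granulosa cells die. The roles given below for each gene are known mainly from human and mouse cells. In bulk tissue, fewer or more cells of a type cannot be told apart from less or more of an RNA in each cell.

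All 8 genes with a probe set had a higher mean signal in atretic than in small healthy follicles. Since those arrays had a part in the choice of the markers, the values in atretic follicles are a description, without a test. The differences of the means ran from 0.94 for *CSF1R* to 3.89 for *GPNMB*, with a median of 1.75, beside a median of 0.01 over all 15470 probe sets with a detectable signal in this comparison, 50.7% of which were above 0. In 7 of the 8 genes the difference was at least 2-fold, the exception being *CSF1R*. Among the 15470 probe sets, 595 differed at least 2-fold in either direction. Set against the rounded follicles alone, the differences were 0.86 to 3.34 with a median of 1.49, and 6 of 8 were at least 2-fold. In that comparison 457 of 15203 probe sets differed at least 2-fold in either direction. All 12 probe sets of the markers passed the filter on low signal here, whereas 9 of 12 passed it among the healthy follicles. The other 2 *GPNMB* probe sets and the second *CD14* probe set passed only through the atretic arrays.

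**Figure D1:**
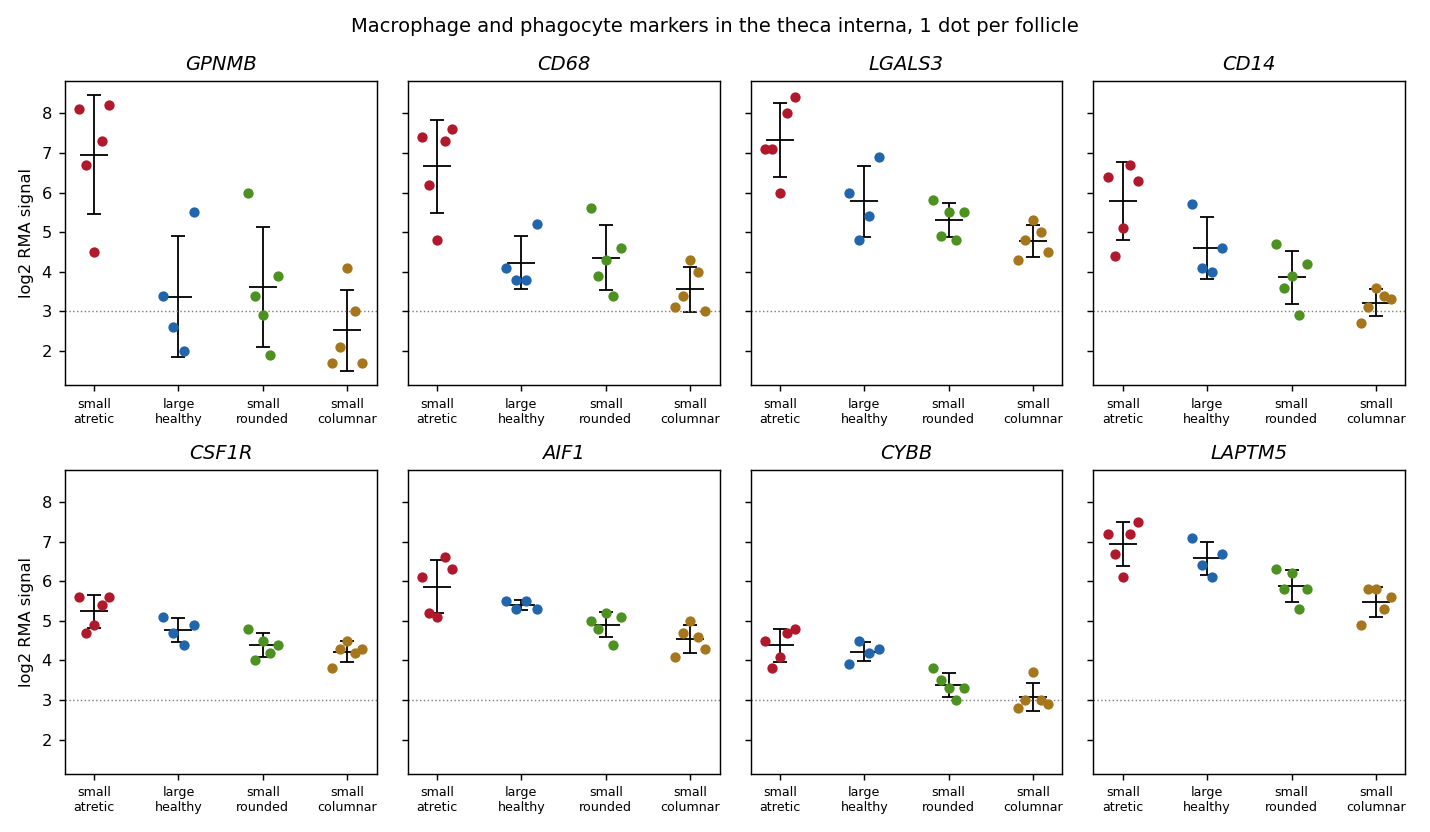
Log2 RMA signal of the brightest probe set of each of 8 marker genes, with 1 dot per follicle, a long bar at the group mean and an interval of 1 SD on either side; the dotted line marks the detection limit of 3. Atretic follicles had the highest group mean for every gene, and small columnar follicles the lowest.

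*GPNMB* and *CD68* had the largest differences. *GPNMB*, a transmembrane glycoprotein of lysosomes and melanosomes that is induced in macrophages with loaded lysosomes, had signals of 8.1, 6.7, 4.5, 7.3 and 8.2 in atretic replicates 1 to 5, against a lowest signal of 1.7, a median of 2.95 and a highest of 6.0 in the 10 small healthy follicles. Replicates 1, 2, 4 and 5 were above every small healthy follicle, and replicate 3 lay inside their range. The mean was 6.96 ± 1.51 in atretic follicles and 3.07 ± 1.36 in small healthy follicles (SD, n = 5 and n = 10), a 14.8-fold difference. Only 4 of the 10 small healthy signals were above the detection limit of 3, so this fold is set against a level mostly near background. Large healthy follicles had *GPNMB* signals of 3.4, 2.6, 2.0 and 5.5, and so spread over most of the small healthy range. The other 2 *GPNMB* probe sets are dimmer, with a mean of 4.54 ± 1.30 in atretic and 2.59 ± 0.43 in small healthy follicles for the brighter of them and of 3.22 ± 0.99 in atretic and 2.14 ± 0.24 in small healthy follicles for the dimmer. In the small healthy follicles 1 of 10 signals for the brighter and 0 of 10 for the dimmer exceeded 3, so no fold is given for either.

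*CD68*, the lysosomal glycoprotein macrosialin, had signals of 7.4, 6.2, 4.8, 7.3 and 7.6 in atretic follicles, against 3.0, 3.95 and 5.6 as the lowest, median and highest in small healthy follicles. The same atretic replicate 3 was the only one within the small healthy range. Means of 6.66 ± 1.17 and 3.96 ± 0.79 differed by 2.70, or 6.5-fold. *LAPTM5*, a lysosomal membrane protein of blood cells that limits receptor signalling, had signals of 7.2, 6.7, 6.1, 7.2 and 7.5 in atretic follicles, against a lowest of 4.9, a median of 5.8 and a highest of 6.3 in small healthy follicles. Again only replicate 3 overlapped, and the means of 6.94 ± 0.55 in atretic and 5.68 ± 0.42 in small healthy follicles differed by 1.26.

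*LGALS3* encodes galectin-3, a lectin that binds galactosides and is abundant in activated macrophages. Its signals were 7.1, 7.1, 6.0, 8.0 and 8.4 in atretic follicles, against a lowest of 4.3, a median of 4.95 and a highest of 5.8 in small healthy follicles. It was the only one of the 8 genes with no overlap between the groups, by a gap of 0.2; over all tested probe sets, 1.42% were higher in atretic follicles without overlap. The means of 7.32 ± 0.93 and 5.04 ± 0.48 differed by 2.28, or 4.86-fold.

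The receptors differed between themselves. *CD14*, the co-receptor that hands bacterial lipopolysaccharide to Toll-like receptor 4, had signals of 6.4, 4.4, 5.1, 6.7 and 6.3 in atretic follicles, against 2.7, 3.5 and 4.7 as the lowest, median and highest in small healthy follicles. Here replicate 2, not replicate 3, lay within the small healthy range. The difference of the means was 2.24 (5.78 ± 0.98 in atretic and 3.54 ± 0.61 in small healthy follicles). The second *CD14* probe set averaged 3.72 ± 0.78 in atretic and 2.46 ± 0.26 in small healthy follicles, where 0 of 10 signals exceeded 3. *CSF1R*, the receptor for the growth factors CSF1 and IL34, had signals of 5.6, 4.7, 4.9, 5.4 and 5.6 in atretic follicles, against 3.8, 4.3 and 4.8 in small healthy follicles. Its mean difference of 0.94 (5.24 ± 0.42 in atretic and 4.30 ± 0.28 in small healthy follicles) was the smallest of the 8.

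*AIF1*, a calcium-binding protein that bundles actin at the phagocytic cup and is also called IBA1, had signals of 6.1, 5.2, 5.1, 6.6 and 6.3 in atretic follicles, against 4.1, 4.75 and 5.2 as the lowest, median and highest in small healthy follicles. Atretic replicates 2 and 3 did not exceed the highest small healthy follicle. *CYBB*, the catalytic subunit of the phagocyte oxidase, had signals of 4.5, 3.8, 4.1, 4.7 and 4.8 in atretic follicles, against 2.8, 3.15 and 3.8 in small healthy follicles. Replicate 2 equalled the highest small healthy follicle and the other 4 were above it. The mean differences were 1.14 for *AIF1* and 1.15 for *CYBB*, and the second *CYBB* probe set differed by 0.75. For *CYBB*, 5 of the 10 small healthy signals exceeded 3.

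The atretic arrays were not alike. Replicates 1, 4 and 5 were above every small healthy follicle for all 8 genes, while replicates 2 and 3 were above them for 4 genes each. In replicate 2 these were *GPNMB*, *CD68*, *LGALS3* and *LAPTM5*, and in replicate 3 they were *LGALS3*, *CD14*, *CSF1R* and *CYBB*. The median over the 8 genes of the signal minus the small healthy mean was 1.79, 0.94, 0.86, 2.42 and 2.29 in replicates 1 to 5. The means over 7 steroidogenic genes of the theca on the same 5 arrays were 8.33, 8.36, 8.71, 7.5 and 6.41, so that the 2 lowest stood on the arrays with the 2 highest marker medians. The small healthy follicles averaged 8.46 ± 0.47 for these 7 genes (n = 10), and the part of this in the marker levels was not tested.

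**Figure D2:**
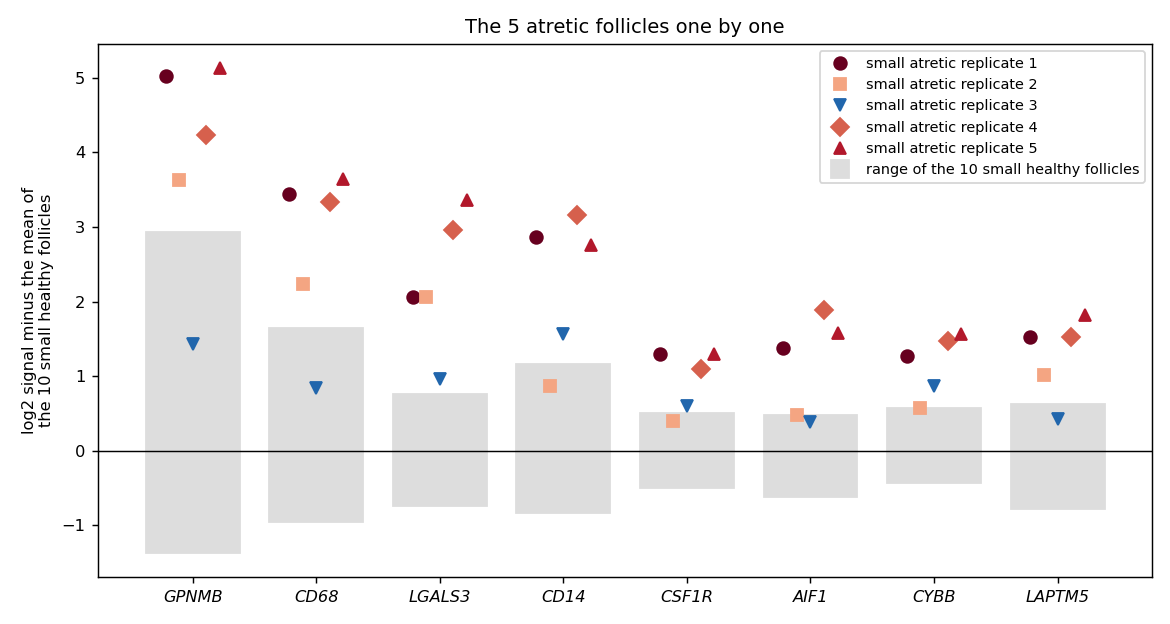
Log2 signal of each atretic follicle minus the mean of the 10 small healthy follicles, for the brightest probe set of 8 genes; grey blocks span the 10 small healthy follicles. Replicates 1, 4 and 5 stand above the block for every gene, and replicate 3 stands inside it for GPNMB, CD68, AIF1 and LAPTM5.

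Large healthy follicles were set against the 10 small healthy follicles to ask what changes with growth. The markers were tested here, since this contrast leaves out the atretic arrays. It shares its small healthy follicles with the atretic comparison, and their signals had been seen when the markers were chosen. The marker p-values for large follicles are therefore not independent of that choice. *CYBB*, *LAPTM5* and *AIF1* were higher in large follicles at an adjusted p under 0.05 and by less than 2-fold; 2.59% of the 15570 probe sets tested were higher at that threshold. A probe set is called when it also changed at least 2-fold. None of the 8 genes was called, beside 0.629% of all probe sets called higher; *CYBB*, just short of 2-fold, was called in 9 of 28 alternatives, and *CD14* and *LAPTM5* in 1 each. The other 5 genes did not pass the adjusted threshold. All 8 differences were above 0, with a median of 0.71 beside -0.005 over all probe sets, of which 49.2% were above 0.

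*CYBB* had signals of 3.9, 4.5, 4.2 and 4.3 in large follicles, all above the highest small healthy signal of 3.8. The difference was 0.995 (SE 0.18, 95% confidence interval 0.61 to 1.38, limma adjusted p = 0.00976), from means of 4.23 ± 0.25 in large and 3.23 ± 0.35 in small healthy follicles. The exact two-sided permutation p was 0.000999, the smallest that 1001 splits can give. Its second probe set was higher by 0.76 (SE 0.16, limma adjusted p = 0.0245), with overlap between the groups.

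*AIF1* had signals of 5.5, 5.3, 5.5 and 5.3 in large follicles, also without overlap with the small healthy follicles, whose highest was 5.2. It was higher by 0.68 (SE 0.18, limma adjusted p = 0.0490). Among all probe sets, 1.09% were higher in large follicles without overlap, as were these 2 of the 8 genes. *LAPTM5*, at 7.1, 6.4, 6.1 and 6.7 in large follicles, was higher by 0.90 (SE 0.23, limma adjusted p = 0.0449), with replicate 3 inside the small healthy range. Both lie close to the threshold: with 1 follicle left out at a time, *AIF1* stayed under it only without rounded replicate 1, 3 or 5, and *LAPTM5* only without rounded replicate 1 or 3 or large replicate 3. With small healthy rounded follicles alone as the comparison, 0 of the 8 genes passed.

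*CD14* had signals of 5.7, 4.1, 4.0 and 4.6 in large follicles, with replicate 1 alone above the small healthy range. The difference of 1.06 (95% confidence interval 0.32 to 1.80) had a limma adjusted p of 0.0992 and an exact permutation p of 0.0210. *CSF1R*, at 5.1, 4.7, 4.4 and 4.9, differed by 0.48 (95% confidence interval 0.14 to 0.81, limma adjusted p = 0.103). Its exact permutation p was 0.0180, and 2 of the 4 large follicles were above the small healthy range.

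*LGALS3*, with 6.0, 4.8, 5.4 and 6.9 in large follicles, differed by 0.74 (limma adjusted p = 0.183), and replicates 1 and 4 were above the small healthy range. For *GPNMB* the difference was 0.31 with a 95% confidence interval of -1.27 to 1.88 (limma adjusted p = 0.819), and for *CD68* it was 0.27 with an interval of -0.60 to 1.13 (limma adjusted p = 0.708). Those intervals hold both a fall and a rise of 2-fold for *GPNMB* and a rise of 2-fold for *CD68*. Large replicate 4 carried the highest *GPNMB* and *CD68* signals of its group, 5.5 and 5.2, and without it the differences were -0.40 and -0.06.

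On the large arrays, the poly-A control transcripts added during labelling were also higher than on small healthy arrays, with means of 5.39 and 4.23 (exact permutation p = 0.000999), while on atretic arrays they averaged 4.41 (exact permutation p = 0.159 against small healthy). The hybridization controls were higher on atretic arrays than on small healthy arrays, at 7.85 and 7.66 (exact permutation p = 0.0260), and averaged 7.81 on large arrays (exact permutation p = 0.0959). Their part in the marker levels was not tested. Of the lists for other cell types, *DES*, desmin of smooth muscle, was called higher in large follicles by 1.25 (limma adjusted p = 0.0187), and 0 of 6 tested endothelial genes were called, with a median difference of 0.54. The granulosa marker *CYP19A1*, aromatase, ran from 1.9 to 5.8 in large follicles and from 1.8 to 3.9 in small healthy follicles. When the arrays with the highest *CYP19A1* of each group, large replicate 2 and small columnar replicate 1, were left out, *CYBB* differed by 0.86 (limma adjusted p = 0.0534) and 0 of the 8 genes passed.

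The atretic and the large comparison share the small healthy follicles, and their values are set side by side without a test. The atretic and the large difference were 3.89 and 0.31 for *GPNMB*, 2.70 and 0.27 for *CD68*, and 2.28 and 0.74 for *LGALS3*. They were 2.24 and 1.06 for *CD14*, 1.26 and 0.90 for *LAPTM5*, and 1.15 and 0.995 for *CYBB*. The remaining pairs were 1.14 and 0.68 for *AIF1* and 0.94 and 0.48 for *CSF1R*. Atretic minus large follicles, again as a description, gave differences that ran from 3.59 for *GPNMB* and 2.44 for *CD68* down to 0.16 for *CYBB*. The signals of atretic and large follicles overlapped for all 8 genes.

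**Figure D3:**
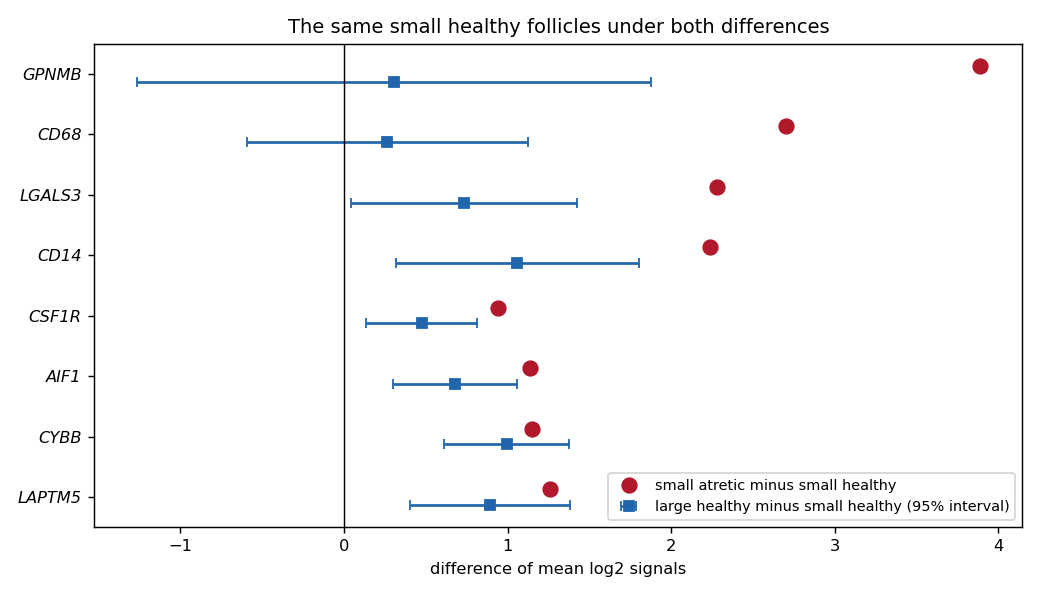
Difference of mean log2 signals for 8 genes in atretic minus small healthy follicles (circles, a description without an interval) and in large minus small healthy follicles (squares, with the 95% interval of the limma fit). The circle and the square lie 3.59 apart for GPNMB and 0.16 apart for CYBB.

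In the order of the group means of the brightest probe sets, *LGALS3*, *CD14*, *CSF1R*, *AIF1*, *CYBB* and *LAPTM5* ran atretic, large, rounded and columnar, high to low. The second *CYBB* probe set did not separate the first 2 groups, with means of 3.84 in atretic and 3.85 in large follicles. For *GPNMB* and *CD68*, large follicles averaged slightly less than rounded ones, 3.38 and 3.62 for *GPNMB* and 4.23 and 4.36 for *CD68*. Large and rounded follicles overlapped for every gene except *AIF1* and *CYBB*, and rounded and columnar follicles overlapped for all 8.

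Rounded follicles had a higher mean than columnar ones for all 8 genes, by 0.16 for *CSF1R* to 1.10 for *GPNMB*, and none of these differences passed a test. The limma adjusted p was 0.996 for each, exact permutation p-values ran from 0.0952 to 0.452, and 0.0% of the 15570 probe sets were called. In this contrast 56.4% of all probe sets had a higher mean in rounded follicles. *GPNMB* signals were 6.0, 3.4, 2.9, 1.9 and 3.9 in rounded replicates 1 to 5 and 1.7, 2.1, 4.1, 3.0 and 1.7 in columnar replicates 1 to 5. The difference of 1.10 had a 95% confidence interval of -0.54 to 2.74, and without rounded replicate 1, much the highest, it was 0.51. *CD68*, at 5.6, 3.9, 4.3, 3.4 and 4.6 in rounded and 3.1, 3.4, 4.3, 4.0 and 3.0 in columnar follicles, differed by 0.80 with an interval of -0.04 to 1.64.

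The small healthy follicles themselves varied widely for some of the markers. *GPNMB* had an SD of 1.36 over the 10 follicles, the 22nd highest of 15570 probe sets, whose median SD was 0.21. Only 4 of these 10 *GPNMB* signals exceeded 3, so part of that spread lies near background. *CD68* (SD 0.79) ranked 257th, *CD14* (0.61) 586th and *LGALS3* (0.48) 1254th, while *CSF1R* (0.28) ranked 4789th. Rounded replicate 1 had the highest signal of the 10 for 7 of the 8 genes, and rounded replicate 3 for *AIF1*. Columnar replicate 1 had the lowest signal, or shared it, for all genes except *CD68*, whose lowest was in columnar replicate 5. The markers also went up and down together across these follicles: over the 28 gene pairs, Pearson's r ran from 0.67 to 0.96 with a median of 0.81 (n = 10), and with rounded replicate 1 left out from 0.47 to 0.96 with a median of 0.76 (n = 9). These are descriptions over arrays that share their labelling and normalization.

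**Figure D4:**
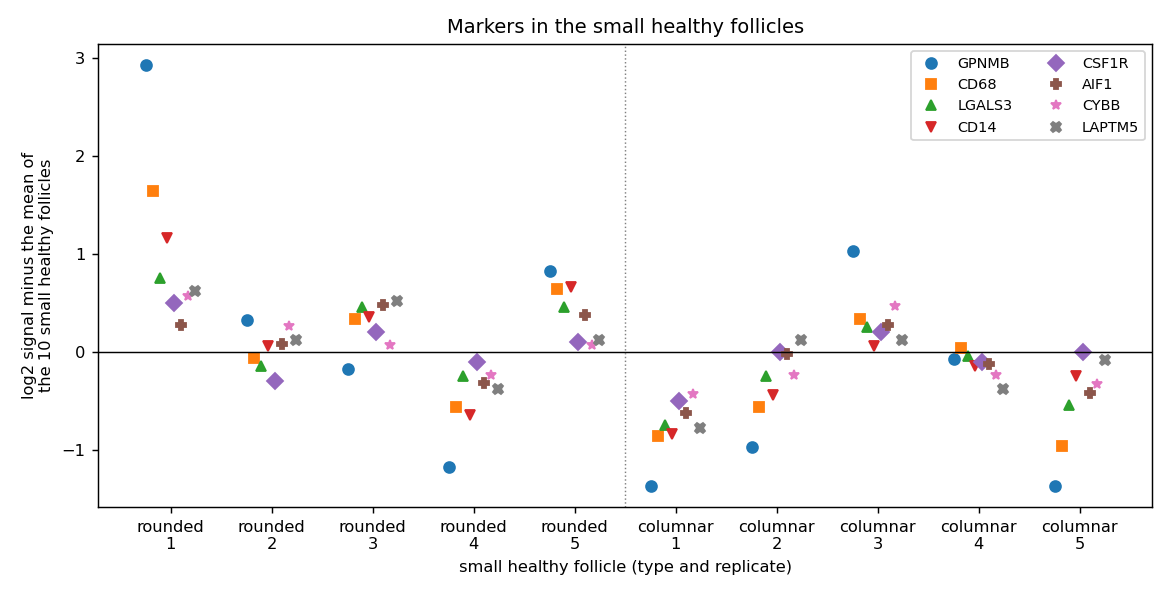
Log2 signal of 8 genes in each small healthy follicle minus the mean of the 10, with rounded follicles left of the dotted line and columnar follicles right of it. All 8 genes lie above 0 in rounded replicate 1 and below 0 in columnar replicate 1.

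Over all 19 arrays the gene pairs had r between 0.72 (*GPNMB* with *CYBB*) and 0.98 (*GPNMB* with *CD68*). The genes outside the marker list whose signals were most like the mean of the 8 markers, among 9728 candidate probe sets, were *TYROBP* (r = 0.98), *C1QB* (0.97), *FOLR2* (0.97), *EED* (0.97) and *CTSB* (0.97). *TYROBP* is the signalling adaptor of activating receptors on myeloid cells, *C1QB* a chain of complement C1q, *FOLR2* a folate receptor of macrophages, *EED* a subunit of the Polycomb complex and *CTSB* the lysosomal protease cathepsin B; the names are those of the platform annotation. Within the 14 healthy arrays alone their r with the marker mean was 0.92, 0.93, 0.93, 0.93 and 0.89. For single markers, the most similar probe set of another gene was *CD68* for *GPNMB* and the reverse (r = 0.98), *CTSB* for *LGALS3* (0.98) and *ITGB2*, the integrin chain of leukocytes, for *AIF1* (0.95). *TGFBI*, a matrix protein, was the closest to *CD14* (0.97), *CSF1R* (0.97) and *LAPTM5* (0.96), and *C16H1orf21* to *CYBB* (0.94).

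Of 74 further phagocyte genes in 7 lists, 55 have a probe set under their symbol. These lists were also chosen with earlier results of these data known, so their counts are not independent evidence. In atretic follicles 42 were detectable enough to be tested, and 37 of them passed the filter on the small healthy follicles as well; *NCF1*, *FCGR2B*, *FCGR3A*, *FCER1G* and *SLC11A1* passed only through the atretic arrays. Of the 37, 16 were called higher than in small healthy follicles, and of the 42, 17 were called higher and 0 lower, beside 2.08% higher and 1.60% lower among all tested probe sets. The 17 were *FCGR1A*, *TYROBP*, *MSR1*, *CD36*, *MERTK*, *TIMD4*, *HMOX1*, *VSIG4*, *ITGB2*, *CD86*, *CD53*, *C1QA*, *C1QB*, *C1QC*, *SLC11A1*, *APOE* and *CCL2*. With rounded follicles alone as the comparison, 3 of the 42 were called, beside 47 of 15203 probe sets called higher. They were *MSR1*, *MERTK* and *CD86*, which also had no overlap between atretic and all small healthy follicles. Of all tested probe sets, 1.42% were higher in atretic follicles without such overlap. Replicate 5 mattered most: without it 13 were called, and without replicate 3 the count was 20.

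The list of scavenger and engulfment genes made up a large share, with 6 of 9 tested genes called. *CD36*, a receptor for oxidised lipids and apoptotic cells, was higher by 1.81 (limma adjusted p = 0.00529), with means of 7.76 ± 0.84 in atretic and 5.95 ± 0.78 in small healthy follicles. The macrophage scavenger receptor *MSR1* was higher by 1.74 (limma adjusted p = 0.00161), at 4.7 to 6.2 in atretic and 2.6 to 4.4 in small healthy follicles. *MERTK* and *TIMD4*, which bind phosphatidylserine on dying cells, *MERTK* through bridging proteins, rose by 1.44 and 1.20. The complement receptor *VSIG4* rose by 1.52 and haem oxygenase *HMOX1* by 1.27. For *VSIG4*, only 3 of the 10 small healthy signals exceeded 3, with a mean of 2.88, so its rise starts near background. *HMOX1* signals were 6.8 to 7.2 in atretic and 5.0 to 6.9 in small healthy follicles. *STAB1*, *LYVE1* and *OLR1* were tested and not called.

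Among genes of myeloid adhesion and secretion, 7 of the 9 tested genes that also passed the filter on small healthy follicles were called, and so was *SLC11A1*, which did not. The C1q chains *C1QA*, *C1QB* and *C1QC*, which tag dying cells and immune complexes, rose by 1.35, 1.42 and 1.47, and *CD53*, a leukocyte tetraspanin, by 1.55. *C1QA* averaged 8.38 ± 0.62 in atretic and 7.03 ± 0.49 in small healthy follicles (limma adjusted p = 0.00337). *APOE*, the lipid carrier, rose by 1.35 and the co-stimulatory ligand *CD86* by 1.17. For *CD86*, too, only 3 of the 10 small healthy signals exceeded 3, with a mean of 2.75. Of the Fc and activating receptors 2 of 6 were called, *TYROBP* by 1.78 (limma adjusted p = 0.00187) and the high-affinity IgG receptor *FCGR1A* by 1.27.

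**Figure D5:**
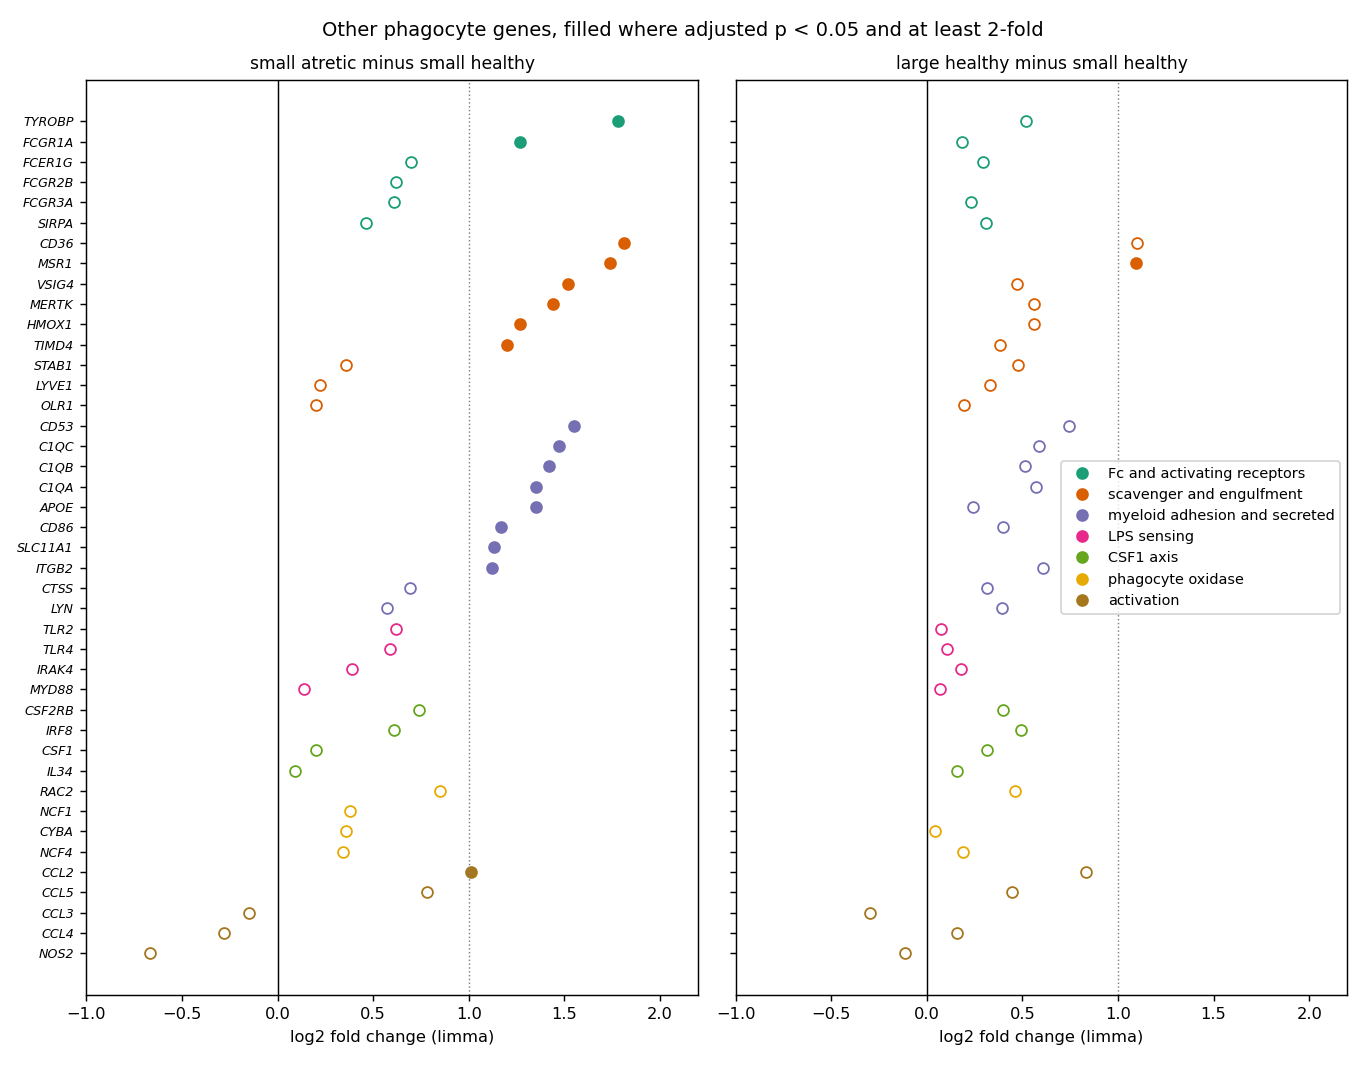
Limma log2 fold change of the tested phagocyte genes outside the marker list in atretic minus small healthy follicles (left) and large minus small healthy follicles (right), coloured by list; filled points passed an adjusted p under 0.05 and a 2-fold change (dotted line). There are 17 filled points on the left, of which SLC11A1 passed the filter only through the atretic arrays, and 1 on the right.

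The lists set around individual markers moved less. The oxidase genes beside *CYBB* had 0 of 4 called, with 2 higher at an adjusted p under 0.05, as were 16.9% of all probe sets. *NCF1*, an organiser of the oxidase, averaged 3.00 ± 0.47 in atretic and 2.62 ± 0.12 in small healthy follicles, where 0 of 10 signals exceeded 3. The list for the CSF1 axis also holds other myeloid genes. Of its 4 tested genes, 0 were called and 2 were higher at an adjusted p under 0.05, with a median of 0.405. These 2 were *IRF8* and *CSF2RB*, neither of them a ligand of *CSF1R*. The *CSF1R* ligands *CSF1* and *IL34* differed by 0.20 (limma adjusted p = 0.143) and 0.09 (limma adjusted p = 0.564). No probe set carries the symbol of *SPI1*, the lineage factor of macrophages. In the list for lipopolysaccharide sensing, *TLR4*, *TLR2*, *MYD88* and *IRAK4* were tested. Of these, 0 of 4 were called and 3 were higher at an adjusted p under 0.05, with a median of 0.49. Among 5 tested genes of activation, the monocyte attractant *CCL2* was called (1.01, limma adjusted p = 0.0442) and *NOS2*, the inducible nitric oxide synthase, differed by -0.67 (limma adjusted p = 0.115). The median over these 5 genes was -0.15. *CCL2* lost its call with no filter on low signal, with no moderation and with rounded follicles alone as the comparison.

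In large follicles 1 of 39 tested phagocyte genes was called, *MSR1*, by 1.10 (limma adjusted p = 0.0494), beside 0.629% of all probe sets; with 1 follicle left out, it stayed called only without rounded replicate 1 or 5 or large replicate 2. *TYROBP* differed by 0.52 (limma adjusted p = 0.240). Between rounded and columnar follicles 0 of 39 were called.

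Markers of other cells also differed in atretic follicles. Of 9 tested lymphocyte and pan-leukocyte genes 3 were called higher, beside 2.08% of all probe sets. They were *PTPRC*, the CD45 phosphatase of all leukocytes, by 1.0 (limma adjusted p = 0.0130), *NKG7* by 1.13 and *CORO1A* by 1.09. At an adjusted p under 0.05, 8 of the 9 were higher, beside 16.9% of all probe sets, and the median difference was 0.8. *CD3D*, *CD3G*, *CD2* and *CD8A* passed the filter only through the atretic arrays and were not called. The median of 0.8 takes in all of these genes and the count of 8 takes in some, so nothing is read from either. The called genes *PTPRC*, *NKG7* and *CORO1A* passed the filter on the small healthy follicles as well. The T-cell gene *CD3E* was at 3.48 ± 0.23 in atretic and 3.08 ± 0.22 in small healthy follicles, and *CD79A* and *MS4A1* of B cells were not detectable enough to be tested. The mean over all 12 genes of the list ran from 3.12 to 3.93 in atretic and from 2.67 to 3.51 in small healthy follicles. Of the 2 tested neutrophil genes, *LTF* was called, by 1.19, and *S100A9* did not reach an adjusted p under 0.05. *S100A8*, *S100A12* and *MPO* stayed below the filter. The part of these cells in the marker levels was not tested.

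The steroidogenic enzyme *CYP11A1*, which starts steroid synthesis from cholesterol, fell by 1.31 in atretic follicles (limma adjusted p = 0.00529), and *CYP17A1*, the androgen-making enzyme of the theca, was at 5.86 ± 2.18 in atretic and 7.33 ± 0.98 in small healthy follicles (limma adjusted p = 0.121). The granulosa gene *INHBA* fell by 1.47 (limma adjusted p = 0.00962), and *CYP19A1* did not pass the filter in this comparison. The endothelial adhesion molecule *PECAM1* differed by -0.21 (limma adjusted p = 0.451), with 0 of 6 endothelial genes called. *MYH11*, smooth muscle myosin, rose by 1.12, no fibroblast gene of 6 was called, and of the reference genes *PPIA* fell by 0.58 (limma adjusted p = 0.00386) and *GAPDH* by 0.28 (limma adjusted p = 0.0386). The part of these differences in the marker levels was not tested either.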

How the data were processed

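The deposited values are log2 signals, 1 per probe set and array, which the authors made by robust multi-array average (RMA) with quantile normalization and rounded to 1 decimal; the submitters' notes name Partek 6.5. The sources used here do not say whether all 19 arrays were normalized in a single run, and the records and the study's methods differ in RNA reagents and amounts. Genes carry the names of the platform annotation, in which 13317 probe sets have 1 symbol, 86 several and 10724 none, for 9156 genes; the brightest probe set over all arrays stood for a gene.

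Probe sets were tested if, in at least 1 follicle type, 50% or more of its arrays exceeded a log2 signal of 3, array controls excluded. Limma 3.58.1 under R 4.3.3 was used, with Benjamini-Hochberg adjustment over all probe sets tested. A call needed a 2-fold change besides an adjusted p under 0.05. Rounded and columnar follicles were compared in a fit of the 3 healthy groups. Exact permutation tests were two-sided. The markers and all gene lists were chosen with earlier results of these data known.

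Named are every marker, the called genes of each list (the 6 with the smallest p where more were called), defining genes of cell types, and the closest in pattern; *NCF1*, *CSF1*, *IL34*, *NOS2*, *PPIA*, *GAPDH*, further called genes and the uncalled or untested genes of a list were named after their values were seen. On simulated data with 200 changed probe sets, 91% of 2.5-fold changes were called among 15470 probe sets (atretic) and 88.1% among 15570 (large). Of 1.5-fold changes 0% were called in either, as a call needs a 2-fold change. The changed probe sets were drawn from all tested ones, so these are not rates for the markers. A planned search for promoter motifs was not run, since promoter sequence was not used here. Array medians were 3.8 to 3.9, 14699 to 14926 probe sets per array exceeded a signal of 3, and pairs of arrays correlated at 0.948 to 0.995. The number of arrays limits the precision.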

Additional observations from a re-analysis of the deposited data

Results flagged for a closer look

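Of 48 groups of marker signals examined for a single array far from the rest, 3 had one; chance gives about 1 in 20. The second *GPNMB* probe set was at 2.3 in atretic replicate 3, below the other 4 atretic follicles at 4.6 to 5.5. The same probe set was at 3.7 in rounded replicate 1, above the other 4 rounded follicles, whose highest was 2.6. *CYBB* was at 3.7 in columnar replicate 3, above the other 4 columnar follicles, whose highest was 3.0.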

How the results depend on the processing

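The median marker difference in atretic follicles (1.75) stayed between 1.57 and 1.94 when any 1 follicle was left out, and all 8 marker differences kept their sign in all alternatives run; with the mean over its probe sets *GPNMB* differed by 2.31. The fit called 7 of the 8 markers (2.08% of all probe sets, higher) but 2 against rounded follicles alone, *LGALS3* and *CYBB*; since these arrays had a part in the choice of markers, nothing is read from either count. The number of probe sets called, 569, was 151 against rounded follicles alone and 444 to 706 with 1 follicle left out, and the 17 listed phagocyte genes became 3 and 13 to 20. For large follicles, 110 probe sets became 12 against rounded follicles alone, 54 with no moderation, 59 without large replicate 2 and columnar replicate 1 (chosen after seeing the data), and 54 to 162 with 1 follicle left out (lowest without large replicate 4; columnar replicates 1 and 2 gave 70 and 72). The 3 markers past the threshold became 0 against rounded follicles alone, 0 without those 2 follicles, and 1 with no moderation, with arrays centred on the median, or with the mean over probe sets. With 1 follicle left out they were 1 to 5, and 5 without rounded replicate 1, which added *CD14* and *CSF1R*. *CYBB* also reached 2-fold, and so a call, in 9 of 28 alternatives (columnar follicles alone, array weights, and without rounded replicate 1, 2, 3 or 5, columnar replicate 3 or large replicate 1 or 3), *CD14* without rounded replicate 1 and *LAPTM5* without large replicate 3. The adjusted p of *CYBB* passed the threshold in all but 2, those against rounded follicles alone (0.85, limma adjusted p = 0.128) and without those 2 follicles (0.86, limma adjusted p = 0.0534). The call of *MSR1*, the only listed gene called in large follicles, became 0 with no filter, rounded or columnar follicles alone, no moderation, centring, a second quantile normalization, or the mean over probe sets, and 0 to 2 with 1 follicle left out. The cause was not tested. Between rounded and columnar follicles 0 probe sets were called throughout.

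Replicate numbers are shared between groups, but nothing pairs the follicles: over 27 same-numbered pairs the correlation of deviations ran from -0.34 to 0.57, with 10 over 0.1. With the replicate number as a block, 1 marker passed in large follicles (*CYBB*) and 0 listed genes were called.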
